A study of Mus musculus with 16 samples.

Results

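Type I interferon-stimulated genes were examined in the mucosa of the mouse ileum, the last segment of the small intestine, with and without the gene Slfn3, which encodes a member of the Schlafen family. The set held 39 genes chosen by name, each required to have at least 10 counts in at least 4 of 16 libraries. All 39 met this rule, as did 14892 of the 46078 genes in the table, and all 39 had at least 10 counts in each library. The mice were C57Bl/6 and formed 4 groups of 4, namely male and female Slfn3KO and male and female WT, none with a treatment named in the labels. The labels gave an age of 8 weeks and the study's methods an older range. Slfn3KO mice came from a line made in another laboratory and were compared with WT littermates. Between 20823279 and 30813117 reads per library were counted on genes. Levels are given in CPM, which are counts scaled to library size with TMM factors. A gene with 3 counts in a library, taken as the floor, had 0.0974 to 0.144 CPM, a limit of counting alone.

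Type I interferons are secreted proteins that cells release when they detect viral or bacterial nucleic acid. They bind a receptor of the chains Ifnar1 and Ifnar2, whose kinases activate Stat2, which acts with Irf9 in the complex ISGF3, and this binds interferon-stimulated response elements near its target genes. The products sense foreign RNA and DNA, block translation or viral assembly, conjugate the ubiquitin-like protein Isg15 and feed back on the receptor. In the gut, a basal level of these transcripts is present without infection, in epithelium and in leukocytes, and type III interferon drives many of the same genes in epithelial cells.

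The response element was sought in RefSeq promoters of GRCm38.p6, from 250 bases before to 50 after the start site, as GAAANNGAAA on either strand, in which N is any base. A promoter was found for 29 of the 39 genes. The element was present in 16 of these 29 (55.2%) and in 3.99% of 27025 genes with a promoter. A gamma-activated site, TTCNNNGAA, was present in 5 of 29 (17.2%) and in 9.55% of all promoters. These letters can overlap those of the response element, as they did in Bst2. The stretches below, shown for some of the genes that carried the element in several copies and for Xaf1, where the search found none, are printed from 5′ to 3′ on the strand of the gene with matches in capitals. The window of Isg15 is chr4:156200859-156200918 on the minus strand, that of Oas1a chr5:120907528-120907587 on the minus strand and that of Oas1g chr5:120887614-120887673 on the minus strand. The windows of Ifit3, chr19:34583359-34583428, Ifit3b, chr19:34607755-34607824, Ddx60, chr8:61928027-61928086, and Xaf1, chr11:72301529-72301628, are on the plus strand.
Isg15: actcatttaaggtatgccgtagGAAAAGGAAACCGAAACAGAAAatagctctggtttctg
Oas1a: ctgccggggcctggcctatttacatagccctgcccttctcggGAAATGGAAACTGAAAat
Oas1g: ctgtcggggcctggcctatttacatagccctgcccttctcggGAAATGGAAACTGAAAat
Ifit3: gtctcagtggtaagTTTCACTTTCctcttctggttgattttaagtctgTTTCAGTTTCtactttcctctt
Ifit3b: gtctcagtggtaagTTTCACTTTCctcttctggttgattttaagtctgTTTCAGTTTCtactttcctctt
Ddx60: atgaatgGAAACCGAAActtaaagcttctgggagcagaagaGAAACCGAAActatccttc
Xaf1: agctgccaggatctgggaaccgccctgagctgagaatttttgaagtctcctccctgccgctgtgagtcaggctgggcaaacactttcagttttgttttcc

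Isg15 held 3 overlapping matches within 22 bases. The Oas1a and Oas1g stretches were identical at 59 of 60 bases, and those of Ifit3 and Ifit3b at 70 of 70. The transcripts of these pairs were also alike. Of all 50-base stretches, the read length used, 57.6% of those in Oas1a also occurred in other genes, mainly Oas1g, as did 45.7% of those in Oas1g. The share was 51.2% in Ifit3 and 45.0% in Ifit3b, each mainly with the other, so that the split of reads within both pairs is uncertain. It was 12.5% in Herc6, 11.6% in Rtp4, 9.82% in Oas1c, 7.13% in Ifit1, 5.98% in Trim30a and 4.38% in Mx2. The absence of a match in Xaf1 says only that these letters are not in its window.

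Slfn3 itself had between 0 and 2 counts in the 8 Slfn3KO libraries and between 0 and 19 in the 8 WT libraries, with a WT median of 3 and 1 WT library at 0, and 15.6% of its 50-base stretches also occurred in Slfn4 or Gm11427. The targeted gene was thus near the counting limit in both genotypes. In 4 WT libraries, those labelled male WT 3, male WT 4, female WT 3 and female WT 4, the transcripts of Xist and Ddx3y went against the sex label, and in the other 12 they followed it. The comparisons within a sex below keep the labels. The libraries also differed in B cell markers. The summed level of 14 B cell markers ran from 5.52 to 165 CPM in Slfn3KO, with a median of 29.7, and from 9.05 to 1119 CPM in WT, with a median of 197, and no marker was at 0 in all libraries. The 4 WT libraries with the contrary sex transcripts held 230 to 1119 CPM of these markers and the other 4 WT libraries 9.05 to 165. Macrophage markers summed to between 57 and 155 CPM in Slfn3KO and 68.9 and 302 in WT, and T cell markers to between 58.5 and 163 and between 62 and 257. The ileal enterocyte gene Fabp6 had between 36770 and 371503 counts in each library, while Lct, the lactase of the proximal small intestine, ran from 0.414 CPM in female WT 3 to 1376 CPM in female WT 1. In bulk mucosa, fewer cells of a type and less RNA per cell cannot be told apart. Results are given also without the 4 WT libraries or with the B cell score, the mean log2 level of the 14 markers, as a covariate.

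The levels of the 39 genes in each library are drawn relative to their WT median in the heat map, which shows the female WT 3 column as the reddest and male Slfn3KO 1 as the bluest.

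**Figure D1:**
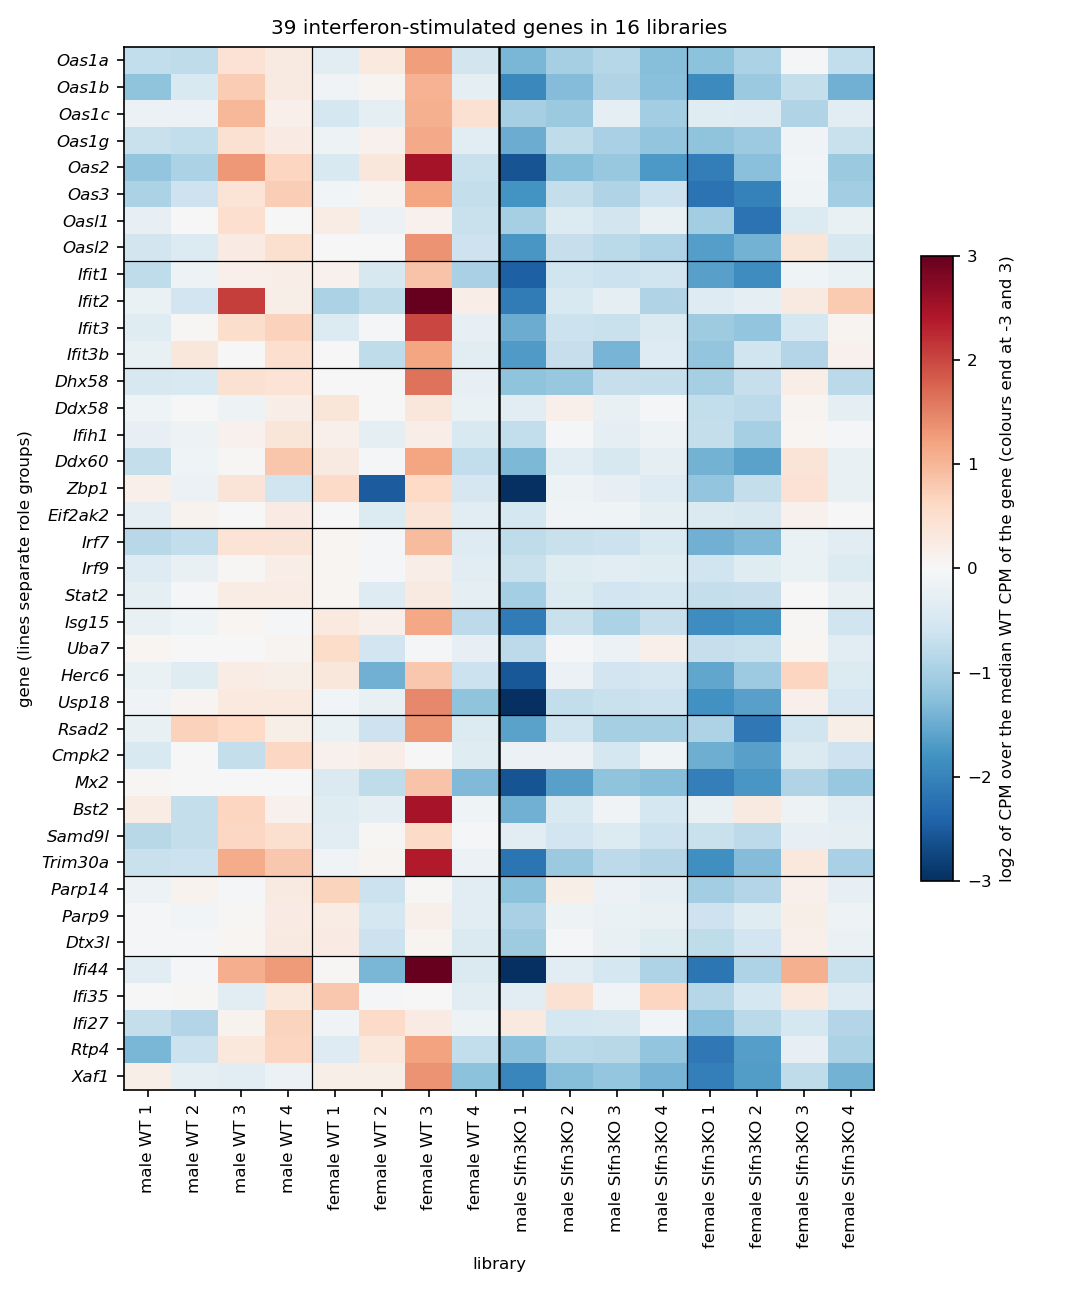
Heat map of 39 interferon-stimulated genes (rows, by role) in 16 libraries (columns, by group). Colour gives the log2 ratio of the CPM to the median WT CPM of the gene. Female WT 3 was the highest of all 16 libraries for 27 genes and male Slfn3KO 1 the lowest for 25.

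In CPM per kilobase of exon, the median level over the 16 libraries spanned from 0.624 for Oas1c to 66.4 for Ifi35. Irf7 at 61.4, Oasl1 at 48.1 and Isg15 at 43.4 followed Ifi35, and Ifi44 at 0.741 and Ifit3b at 0.729 lay next to Oas1c at the other end. The order is a description, and differences between neighbours in it were not tested. Single libraries spread the values widely. The median over the 39 genes of the log2 ratio to the WT median ran from -1.31 in male Slfn3KO 1 to -0.02 in female Slfn3KO 3, and from -0.36 in female WT 4 to 0.94 in female WT 3. Female WT 3 was the highest of the 16 libraries for 27 genes, male WT 4 for 6, female WT 1 for 4 and male WT 3 for 2, so that no Slfn3KO library was the highest for any. Male Slfn3KO 1 was the lowest for 25 genes, female Slfn3KO 1 and 2 for 6 each, and male Slfn3KO 2 and male WT 1 for 1 each. Female Slfn3KO 3 lay above the WT median for 19 of the 39 genes, so the genotypes overlapped.

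All 39 genes had a log2 fold change below 0 in Slfn3KO over WT with the sexes pooled, against 50.7% of 14822 genes tested. The set was chosen with earlier results of these data known, so its counts beside all genes are no independent test. The median was -0.90 for the 39 genes and -0.0037 for all genes. In edgeR's quasi-likelihood test, adjusted over all genes by the method of Benjamini and Hochberg, 0 of the 39 were past an adjusted p of 0.05 with a change of at least 1.5-fold, and 0% of all genes were. The smallest adjusted p was 0.327. At an unadjusted p under 0.05, 30 of the 39 were lower and none higher, against 7.1% of all genes that were lower, and 24 also reached 1.5-fold, against 4.99%. DESeq2's Wald test with the same adjustment called 7 of the 39 lower, against 0.27% of all genes. They were Oas1a, Oas1b, Oas1g, Oas2, Mx2, Trim30a and Xaf1. At least 4 of the 8 WT libraries lay above all 8 Slfn3KO libraries for 18 of the 39 genes, against 8.07% of all genes.

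Without the WT libraries 3 and 4 of both sexes the median of the 39 genes was -0.43 and 38 lay below 0, against 47.2% of 15093 genes tested, while 9 were lower at an unadjusted p under 0.05, against 3.1%. With the B cell score as a covariate the median was -0.58 and 21 were lower at an unadjusted p under 0.05, against 2.1% of 14822 genes. The median thus stayed below 0 and lay nearer to it under both settings, and single genes differed in how far they moved.

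**Figure D2:**
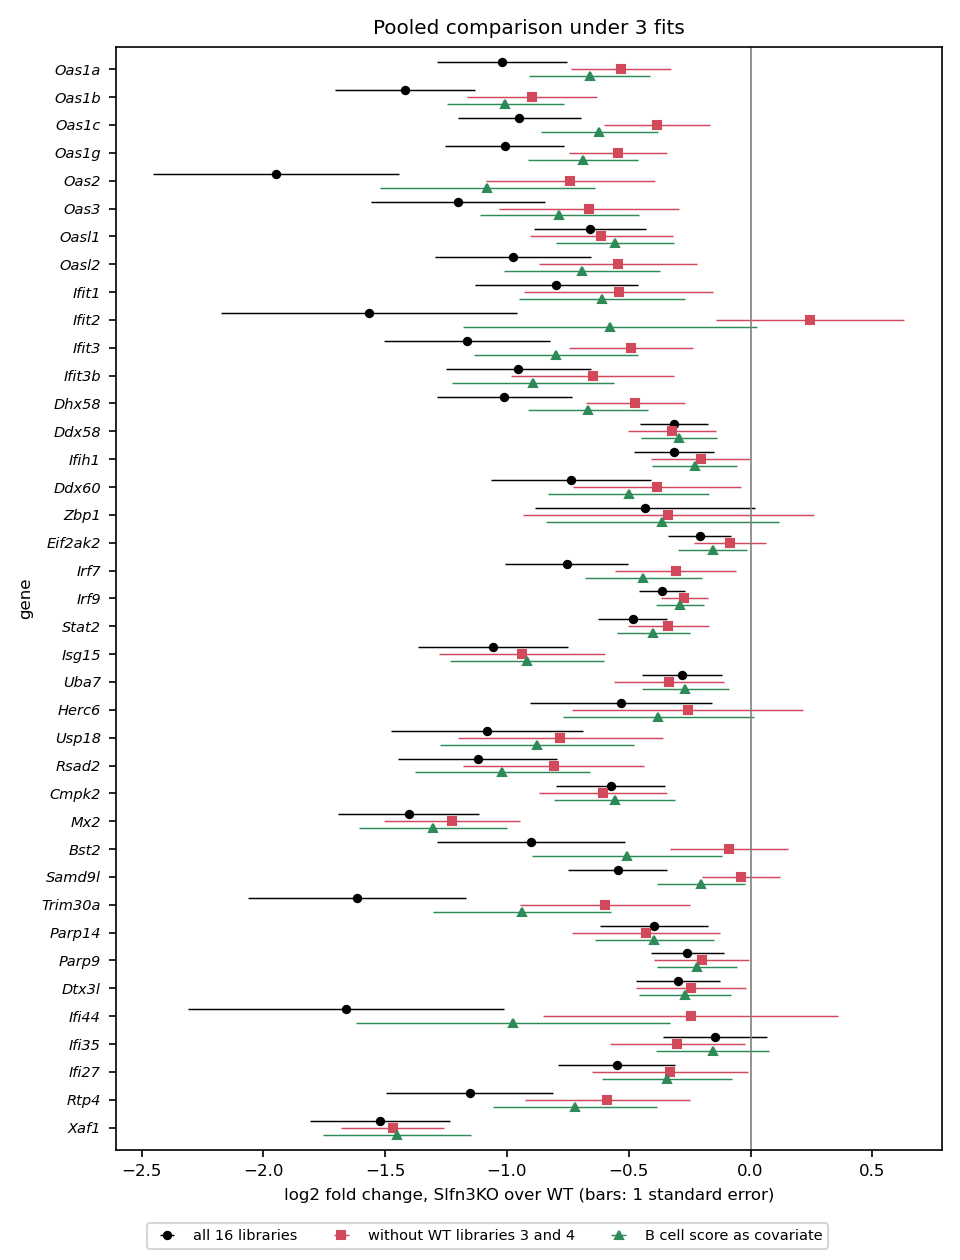
Log2 fold change of Slfn3KO over WT (x axis) for the 39 genes (y axis), with bars of 1 standard error. Black circles use all 16 libraries, red squares leave out WT libraries 3 and 4 of both sexes, and green triangles have the B cell score as a covariate. Xaf1 and Mx2 stayed below -1 in each fit, and Ifit2 moved from -1.57 to 0.25 without the 4 libraries.

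Type I and type III interferons themselves were at the counting limit. The 20 genes of type I and type III interferons had at most 2 counts in any library, and 0 of 20 passed the filter on low counts. No difference in these ligands was detectable at this depth. Ifng, which encodes interferon gamma, passed the filter and had a log2 fold change of -0.28 (edgeR adjusted p = 0.866). Of 6 receptor genes, 2 were lower at an unadjusted p under 0.05 and the median log2 fold change was -0.12, with -0.48 ± 0.18 (SE) for Ifnar2 and -0.15 ± 0.06 for Ifnar1. Without the 4 WT libraries none of the 6 was lower at an unadjusted p under 0.05, though all 6 lay below 0. The values were then -0.07 for Ifnar2 and -0.12 for Ifnar1. Of all genes, 7.1% were lower at that p with all libraries and 3.1% without the 4 WT libraries.

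The 3 transcription factors were all lower at an unadjusted p under 0.05, with a median log2 fold change of -0.48, and 1 was without WT libraries 3 and 4. Irf7, which amplifies interferon transcription, had 91.0, 157 and 214 CPM as the lowest, median and highest in Slfn3KO and 140, 247 and 475 CPM in WT. Its log2 fold change was -0.76 ± 0.25 (SE, n = 8 per genotype, edgeR adjusted p = 0.327), and -0.31 without WT libraries 3 and 4. Of the WT libraries 5 of 8 lay above all Slfn3KO libraries, and male WT 1, male WT 2 and female WT 4 lay within the Slfn3KO range. Irf9, the DNA-binding part of ISGF3, had the smallest standard error of the 39, with 43.5, 53.9 and 60.9 CPM in Slfn3KO and 53.4, 69.5 and 80.2 CPM in WT. Its log2 fold change was -0.36 ± 0.09 (edgeR adjusted p = 0.327), and -0.27 without the 4 libraries. Stat2, which carries the activating domain of ISGF3, had 62.4, 86.4 and 128 CPM in Slfn3KO and 97.6, 127 and 153 CPM in WT. Stat2 thus had a log2 fold change of -0.48 ± 0.14 (edgeR adjusted p = 0.327), and -0.34 without the 4 libraries, and 6 of 8 Slfn3KO libraries lay below all WT libraries.

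The Oas family encodes oligoadenylate synthetases, which on binding viral RNA make the messenger that activates RNase L, and the related Oasl proteins. All 8 members were lower at an unadjusted p under 0.05, with a median log2 fold change of -1.01 and a range from -1.95 for Oas2 to -0.66 for Oasl1, and 3 of the 8 were without WT libraries 3 and 4. Oas1b had 1.23, 1.93 and 2.84 CPM in Slfn3KO and 2.04, 4.68 and 9.65 CPM in WT. In 7 of 8 WT libraries it lay above all Slfn3KO libraries. The exception was male WT 1. The log2 fold change of Oas1b was -1.42 ± 0.29 (SE, n = 8 per genotype, edgeR adjusted p = 0.327, DESeq2 adjusted p = 0.0021), and it was -0.90 without WT libraries 3 and 4 and -1.01 with the B cell score.

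Oas1g had 8.83, 12.1 and 22.7 CPM in Slfn3KO and 14.6, 24.6 and 53.9 CPM in WT. This gave a log2 fold change of -1.01 ± 0.24 (edgeR adjusted p = 0.327), and -0.54 without the 4 libraries. Its promoter stretch and a large share of its transcript are those of Oas1a, for which the same values were -1.02 ± 0.27 and -0.53. Oasl1, the family's most abundant member per length and a repressor of Irf7 translation, had 31.8, 106 and 127 CPM in Slfn3KO and 93.2, 148 and 211 CPM in WT, and its log2 fold change of -0.66 ± 0.23 (edgeR adjusted p = 0.33) went to -0.61 without the 4 libraries. Oas2 went from -1.95 ± 0.50 to -0.74. Female WT 3 held 58.1 CPM of it and male WT 3 25.3 CPM, and the other 6 WT libraries held 4.51 to 16.1 CPM. Oas3 went from -1.20 to -0.66, Oasl2 from -0.97 to -0.54 and Oas1c from -0.95 to -0.38.

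Ifit proteins bind viral RNA ends and block their translation. All 4 genes were lower at an unadjusted p under 0.05 with all libraries, and none without the 4 WT libraries. Ifit1, the most abundant per length, had 17.7, 63.1 and 89.8 CPM in Slfn3KO and 49.6, 97.6 and 176 CPM in WT. This gave a log2 fold change of -0.80 ± 0.33 (edgeR adjusted p = 0.364), and -0.54 without the 4 libraries. Ifit3, a partner of Ifit1, had 2.88, 5.14 and 8.51 CPM in Slfn3KO and 6.08, 8.08 and 32.2 CPM in WT, and all Slfn3KO libraries except female Slfn3KO 4 lay below all WT libraries. For Ifit3 the log2 fold change was -1.16 ± 0.34 (edgeR adjusted p = 0.327), and it was -0.49 without the 4 libraries and -0.73 without female WT 3 alone. Its neighbour Ifit3b, with 0.577 to 2.05 CPM in Slfn3KO and 1.10 to 4.27 CPM in WT, had medians of 1.08 and 1.86 CPM. Ifit3b had -0.95 ± 0.30 (edgeR adjusted p = 0.327), and -0.65 without the 4 libraries.

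Without the 4 WT libraries Ifit2 was the only one of the 39 genes to change sign. It held 65.3 CPM in female WT 3 and 24.9 CPM in male WT 3, against 3.06 to 6.79 CPM in the other 6 WT libraries and 1.37 to 10.2 CPM in Slfn3KO. Its log2 fold change was -1.57 ± 0.61 with all libraries (edgeR adjusted p = 0.336) and 0.25 ± 0.39 without the 4 libraries, and it was -0.62 without female WT 3 alone. In the other WT libraries Ifit2 thus lay inside the Slfn3KO range. It is named here after its values were seen.

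The sensors recognise viral nucleic acid in the cytosol and start interferon transcription. Of 6 genes, 3 were lower at an unadjusted p under 0.05, and the median log2 fold change was -0.37, while 1 was without WT libraries 3 and 4. Dhx58, or LGP2, which tunes RIG-I and MDA5, had 5.59, 7.63 and 14.7 CPM in Slfn3KO and 9.28, 12.8 and 39.4 CPM in WT. For Dhx58 it came to -1.01 ± 0.28 (edgeR adjusted p = 0.327), and -0.47 without the 4 libraries, and all Slfn3KO libraries except female Slfn3KO 3 lay below all WT libraries. Ddx60, a helicase linked to RIG-I signalling that has 2 copies of the element in its promoter stretch, had 20.7, 48.1 and 82.9 CPM in Slfn3KO and 37.7, 63.2 and 143 CPM in WT, with -0.74 ± 0.33 (edgeR adjusted p = 0.389), and -0.38 without the 4 libraries. Zbp1, a sensor of Z-form nucleic acid and the most abundant per length here, had 9.08, 98.9 and 164 CPM in Slfn3KO and 21.7, 122 and 184 CPM in WT.

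The ranges of Zbp1 overlapped almost wholly, since male Slfn3KO 1 and female WT 2 stood far below the other libraries, and its log2 fold change was -0.43 ± 0.45 (edgeR adjusted p = 0.709), -0.34 without the 4 libraries and -0.26 without male Slfn3KO 1 alone. Ddx58, which encodes RIG-I, was at -0.31 ± 0.14, Ifih1, which encodes MDA5, at -0.31 ± 0.16, and Eif2ak2, the kinase PKR that halts translation, at -0.21 ± 0.13. Only Ddx58 of these 3 had an unadjusted p under 0.05. Without the 4 WT libraries the values were -0.32 for Ddx58, -0.20 for Ifih1 and -0.08 for Eif2ak2, and Eif2ak2 was at -0.13 without female WT 3 alone.

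Isg15 is a ubiquitin-like protein, Uba7 its activating enzyme, Herc6 its ligase in mice and Usp18 the protease that removes it and that also blocks the receptor. Of these 4 genes Isg15 and Usp18 were lower at an unadjusted p under 0.05, and 1 of the 4 was without WT libraries 3 and 4. Isg15 had 10.2, 24.7 and 44.5 CPM in Slfn3KO and 25.1, 43.5 and 97.9 CPM in WT. Its log2 fold change was -1.06 ± 0.31 (edgeR adjusted p = 0.327), and it stayed at -0.94 without WT libraries 3 and 4 and -0.92 with the B cell score. Female Slfn3KO 3, at 44.5 CPM, lay above 4 of the 8 WT libraries, and the other Slfn3KO libraries held at most 28.6 CPM. Usp18 had 2.56, 12.7 and 23.1 CPM in Slfn3KO and 8.94, 20.7 and 56.0 CPM in WT, with -1.08 ± 0.39 (edgeR adjusted p = 0.333), and -0.78 without the 4 libraries. Uba7 was at -0.28 ± 0.16 and Herc6 at -0.53 ± 0.37, and without the 4 libraries they were at -0.34 and -0.26. Single libraries moved both, Uba7 to -0.16 without female WT 1 and Herc6 to -0.82 without female Slfn3KO 3.

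All 6 genes listed as antiviral effectors were lower at an unadjusted p under 0.05, and 2 of the 6 were without WT libraries 3 and 4. The median log2 fold change with all libraries was -1.01. Mx2, a dynamin-like GTPase, had 1.84, 4.11 and 5.91 CPM in Slfn3KO and 4.42, 11.1 and 20.1 CPM in WT. All WT libraries except female WT 4 lay above all Slfn3KO libraries. The log2 fold change of Mx2 was -1.40 ± 0.29 (SE, n = 8 per genotype, edgeR adjusted p = 0.327, DESeq2 adjusted p = 0.0021), -1.23 ± 0.28 without WT libraries 3 and 4 and -1.30 ± 0.30 with the B cell score. Trim30a, a TRIM family protein that restrains toll-like receptor signalling, had 4.72, 10.5 and 26.9 CPM in Slfn3KO and 13.5, 21.5 and 111 CPM in WT, and all Slfn3KO libraries except female Slfn3KO 3 lay below all WT libraries.

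For Trim30a the log2 fold change was -1.62 ± 0.45 (edgeR adjusted p = 0.327), and -0.60 without the 4 libraries, among which female WT 3 held 111 CPM. Cmpk2, a mitochondrial nucleotide kinase and the most abundant effector per length, had 29.97, 66.7 and 83.8 CPM in Slfn3KO and 56.3, 92.4 and 142 CPM in WT, with -0.57 ± 0.22 (edgeR adjusted p = 0.336), and -0.61 without the 4 libraries. Its chromosomal neighbour Rsad2, or viperin, which makes a chain-terminating nucleotide, was at -1.12 ± 0.33 and at -0.81 without the 4 libraries. Bst2, or tetherin, which holds budding virions on the cell, went from -0.90 to -0.09 and Samd9l, a restriction factor of poxviruses, from -0.55 to -0.04. The difference in Bst2 and Samd9l thus rested on the 4 libraries, and that in Bst2 was -0.31 without female WT 3 alone.

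**Figure D3:**
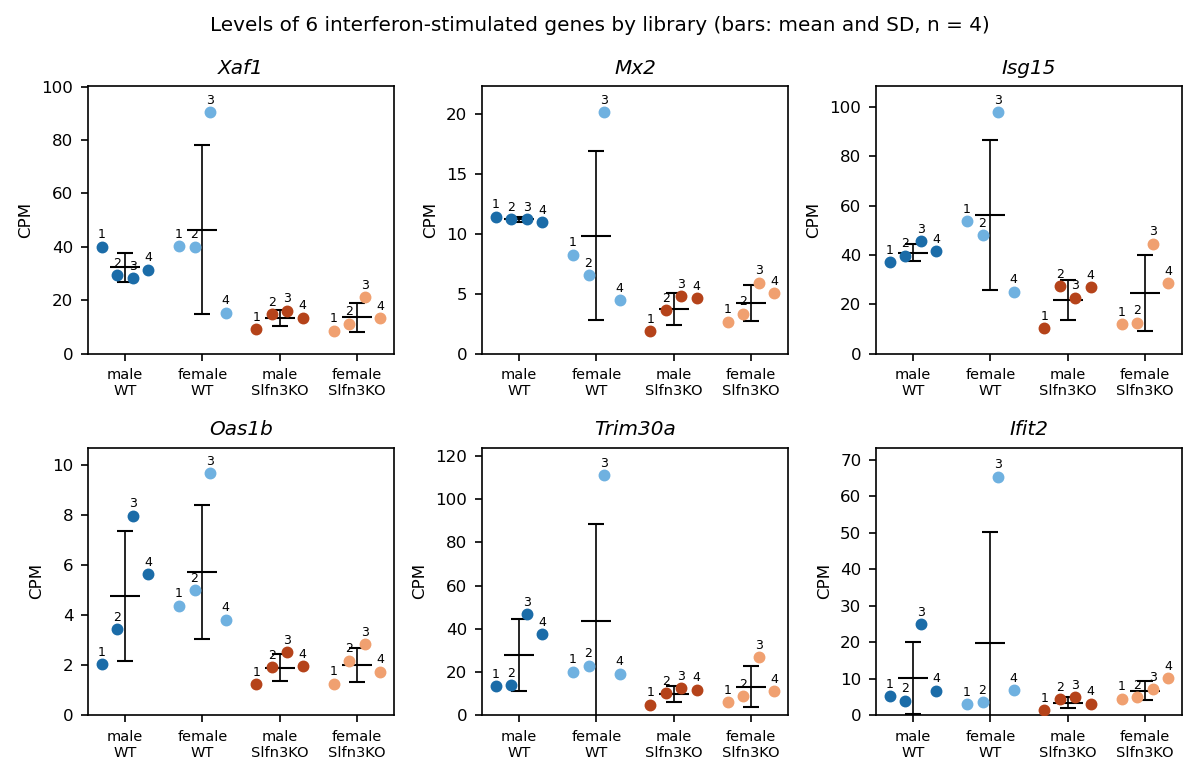
CPM (y axis, from 0) of 6 genes in each library by group (x axis), with the library number at each point and the mean and SD of the group in black (n = 4, lower ends cut at 0). For Xaf1 and Mx2 the points labelled male WT lie close together above all male Slfn3KO points. Of these WT points, libraries 3 and 4 carried female sex transcripts. For Trim30a and Ifit2 female WT 3 stands far above the rest.

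The ADP-ribosyltransferases Parp14 and Parp9 and the ubiquitin ligase Dtx3l, the partner of Parp9, are neighbours on chromosome 16. Of these, 0 of 3 were lower at an unadjusted p under 0.05, and the median log2 fold change was -0.30. Parp14 had 129, 251 and 342 CPM in Slfn3KO and 195, 303 and 478 CPM in WT, with -0.40 ± 0.22 (edgeR adjusted p = 0.506), -0.43 without the 4 libraries and -0.25 without female WT 1 alone. Parp9, the most abundant of the 3 per length, had 97.2, 164 and 215 CPM in Slfn3KO and 131, 190 and 226 CPM in WT, with -0.26 ± 0.15 (edgeR adjusted p = 0.516), and -0.20 without the 4 libraries. The WT and Slfn3KO ranges of both genes overlapped over most of their length, and Dtx3l was at -0.30 ± 0.17.

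Among the remaining 5 induced genes, Xaf1, an antagonist of the inhibitor of apoptosis XIAP, had the smallest p of the 39. It had 8.6, 13.4 and 21.2 CPM in Slfn3KO and 15.3, 35.7 and 90.5 CPM in WT. Female WT 4 was the only WT library within the Slfn3KO range, and the next lowest, male WT 3, held 28.3 CPM. The log2 fold change of Xaf1 was -1.52 ± 0.29 (SE, n = 8 per genotype, edgeR unadjusted p = 7.5e-05 and adjusted p = 0.327, DESeq2 adjusted p = 0.000584). It was -1.47 ± 0.21 without WT libraries 3 and 4, with an edgeR adjusted p of 0.118, and -1.45 ± 0.30 with the B cell score. Xaf1 lies at chr11:72301629-72313733 of mm10, 10.9 megabases from Slfn3 at chr11:83191330-83215154.

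Rtp4, a chaperone of G protein-coupled receptors, had 6.49, 13.6 and 24.1 CPM in Slfn3KO and 10.9, 28.5 and 65.6 CPM in WT, with -1.15 ± 0.34 (edgeR adjusted p = 0.327), and -0.59 without the 4 libraries. Ifi35, which binds the regulator Nmi and was the most abundant of the 39 per length, had 65.0, 102 and 183 CPM in Slfn3KO and 94.2, 118 and 205 CPM in WT. Its log2 fold change was -0.14 ± 0.21 (edgeR adjusted p = 0.788), the smallest of the set, -0.30 without the 4 libraries and 0.017 without female WT 1 alone. Ifi44, at the low end with 0.541 to 12.4 CPM in Slfn3KO and 2.29 to 56.5 CPM in WT, went from -1.66 ± 0.65 to -0.25 without the 4 libraries and to -0.75 without female WT 3 alone. Ifi27, a mitochondrial protein, went from -0.55 ± 0.24 to -0.33.

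Within males, 22 of the 39 genes were lower at an unadjusted p under 0.05, against 1.98% of 14124 genes, and the median log2 fold change was -0.81. None was past the adjusted threshold by edgeR, with a smallest adjusted p of 0.802, and DESeq2 called 3 lower, namely Rsad2, Mx2 and Xaf1, against 0.0708% of all genes. All 4 male Slfn3KO libraries lay below all 4 labelled male WT libraries for 15 of the 39, against 1.23%. They were Oas1a, Oas1c, Oas1g, Oasl2, Ifit3, Ifit3b, Dhx58, Stat2, Isg15, Usp18, Rsad2, Mx2, Trim30a, Parp9 and Xaf1. Mx2 was nearly constant in labelled male WT, at 11.4, 11.2, 11.2 and 11 CPM in libraries 1 to 4. In male Slfn3KO it was 1.84, 3.61, 4.77 and 4.61 CPM. This rests on the labels, since male WT 3 and 4 carried female sex transcripts. The libraries labelled female WT 3 and 4 carried male ones and held 20.1 and 4.42 CPM, the latter inside the male Slfn3KO range. The log2 fold change of Mx2 in males was -1.60 ± 0.27 (edgeR adjusted p = 0.802). Xaf1 was 32.3 ± 5.31 CPM (SD, n = 4) in labelled male WT and 13.4 ± 2.99 CPM in male Slfn3KO. Its log2 fold change was -1.27 ± 0.18 (edgeR adjusted p = 0.802). Female WT 3 and 4 held 90.5 and 15.3 CPM of Xaf1, the latter again inside the male Slfn3KO range, which reached 16.1 CPM. Isg15, Usp18 and Parp9 in female WT 4 also lay inside that range. The other genes of the 15 lay above it.

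Rsad2 was 36.8 ± 10.1 CPM (SD, n = 4) in male WT and 14.4 ± 3.91 CPM in male Slfn3KO, a log2 fold change of -1.35 ± 0.26 (edgeR adjusted p = 0.925). Ifi35 was the only gene above 0 in males, at 0.19 ± 0.22. Cmpk2 at -0.19 ± 0.26 and Ifi27 at -0.08 ± 0.35 lay near 0. Without WT libraries 3 and 4, 5 of the 39 were lower in males at an unadjusted p under 0.05, against 3.76% of 14551 genes, and the median was -0.39.

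Within females, 17 of the 39 genes were lower at an unadjusted p under 0.05, against 8.56% of 14064 genes, and the median log2 fold change was -0.94. None was past the adjusted threshold by edgeR, and DESeq2 called 4 lower, namely Oas1b, Cmpk2, Ifi27 and Xaf1, against 2.43% of all genes. All 4 female Slfn3KO libraries lay below all 4 labelled female WT libraries for Oas1b, Cmpk2 and Ifi27, which is 3 of the 39, against 3.03% of all genes. Ifi27 was 31.8, 51.2, 40.6 and 31.2 CPM in female WT 1 to 4 and 14.5, 19.7, 23.9 and 18.6 CPM in female Slfn3KO 1 to 4, a log2 fold change of -1.02 ± 0.20 (edgeR adjusted p = 0.236). Cmpk2 was 100.89, 107, 91.8 and 71.9 CPM in female WT and 33.5, 29.97, 68.8 and 59.8 CPM in female Slfn3KO, a log2 fold change of -0.95 ± 0.28 (edgeR adjusted p = 0.237). The separation of these groups rests on the labels, since female WT 3 and 4 carried male sex transcripts. Male WT 3 and 4, which carried female ones, held 56.3 and 142 CPM of Cmpk2, the former below female Slfn3KO 3 and 4. Of Oas1b they held 7.96 and 5.61 CPM, above all female Slfn3KO libraries. Female Slfn3KO 3 was the highest Slfn3KO library for 26 of the 39 genes. Without female WT 3, 4 of the 39 were lower at an unadjusted p under 0.05, against 12.8% of 14266 genes, and the median was -0.39. Without WT libraries 3 and 4 the count was 5, against 11.8% of 14634 genes, with a median of -0.57, and with the B cell score it was 3, against 8.55% of 14064 genes, with a median of -0.45. The share of the 39 genes under these settings was thus near or below that of all genes. The median over all genes was -0.014, 0.0047 and 0.021 in the same order, above that of the 39 genes each time. Leaving out WT libraries 3 and 4 kept only 2 WT libraries in this comparison. In the female comparison with all libraries, 6 proximal enterocyte markers, Lct among them, had a median log2 fold change of -2.21. Of these, 4 lay below 0 and 2 above. The 8 markers of smooth muscle and stroma had a median of 1.18, with 1 below 0 and 7 above. The part of both lists in the result was not tested.

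The difference between the sexes, as the female minus the male log2 fold change, had a median of -0.09 over the 39 genes. None of them had an unadjusted p under 0.05 by edgeR, against 11.1% of 14822 genes, and the largest was Ifi27 at -0.92 ± 0.43 (edgeR unadjusted p = 0.0502 and adjusted p = 0.451). Cmpk2 followed at -0.75 ± 0.41 (edgeR adjusted p = 0.476). Without WT libraries 3 and 4 the value of Ifi27 was -1.74 (edgeR adjusted p = 0.0453), the only one of the 39 past the threshold, and it then rested on 2 WT libraries per sex. The share of all genes past the threshold was not counted in that setting, so this call has no baseline beside it. With all libraries, the direction of a difference between the sexes is drawn from labels that the sex transcripts of those 4 libraries contradicted.

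The level of the 39 genes and that of the B cell markers are set side by side by library. Female WT 3, the highest for the 39 genes, held 555 CPM of B cell markers, while male WT 3, with the most at 1119 CPM, stood at 0.26 on the log2 scale of the median. Female WT 4 held 725 CPM and stood at -0.36, the lowest WT library, and female WT 1 held 27.5 CPM and stood at 0.02. Among Slfn3KO, male Slfn3KO 4 held 165 CPM and stood at -0.53, and male Slfn3KO 1 held 5.52 CPM and stood at -1.31. The B cell markers themselves had a median log2 fold change of -2.98 with all libraries, all 14 lower at an unadjusted p under 0.05, and of 0.12 without the 4 WT libraries.

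**Figure D4:**
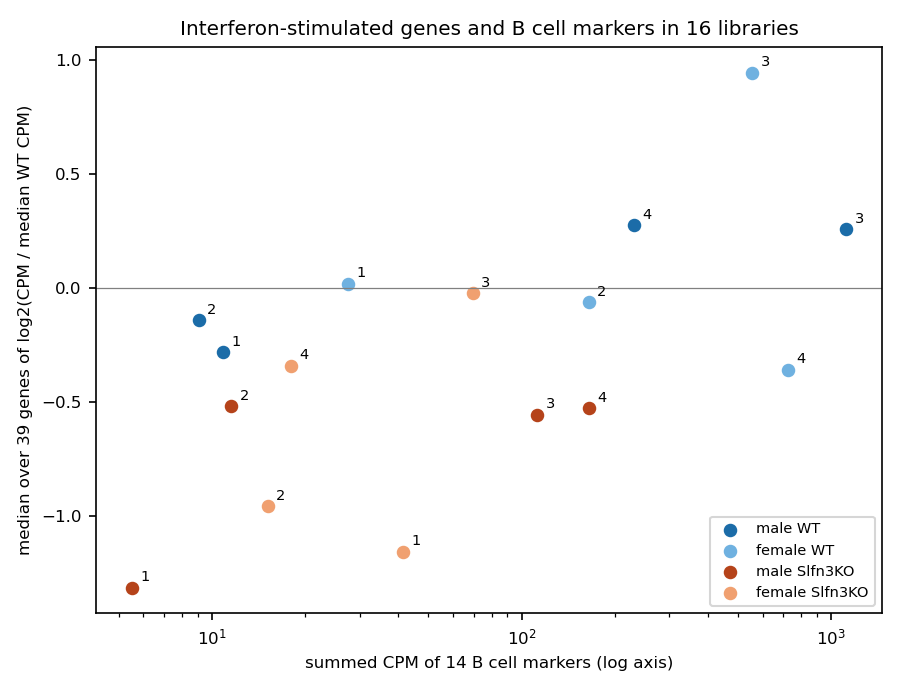
Median over the 39 genes of the log2 ratio of CPM to the median WT CPM (y axis) against the summed CPM of 14 B cell markers (x axis, log scale), 1 point per library with its number. WT libraries 3 and 4 lie to the right at 230 to 1119 CPM, with medians from -0.36 to 0.94.

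Plasmacytoid dendritic cells are a main source of type I interferon. Their 8 markers summed to between 87.6 and 193 CPM in Slfn3KO and 80.2 and 280 in WT, and of 7 tested 4 were lower at an unadjusted p under 0.05, with a median log2 fold change of -0.82. Of the 7, 0 were lower without the 4 WT libraries, with a median of -0.14, and 0 with the B cell score, with a median of -0.43. Their defining gene Siglech had a median of 0.359 CPM in Slfn3KO and 0.711 CPM in WT, with a log2 fold change of -0.46, and -0.16 without the 4 WT libraries. Siglech was thus a small part of the sum, and whether the other markers came from these cells was not tested. Of 11 macrophage and monocyte markers 2 were lower, with a median of -0.19, and without the 4 WT libraries 0 were, with a median of 0.20. Of 12 T cell markers 5 were lower, with a median of -0.60, and without the 4 WT libraries 0 were, with a median of -0.37. Of all genes, 7.1% were lower with all libraries, 3.1% without the 4 WT libraries and 2.1% with the B cell score. Lower here means at an unadjusted p under 0.05. The part of these cells in the results was not tested.

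Other genes known to respond to interferon were listed apart from the 39. Of 71 tested, 63 had a log2 fold change below 0, 26 were lower and 2 higher at an unadjusted p under 0.05, and the median was -0.27. Of all genes, 50.7% were below 0 and 7.1% lower. Without the 4 WT libraries 47 of the 71 were below 0 and 5 lower, with a median of -0.08, and with the B cell score 3 were lower. The shares over all genes were 47.2% below 0 and 3.1% lower without the 4 WT libraries, and 2.1% lower with the B cell score. These shares also stand beside the lists that follow. Helz2, an interferon-induced helicase, had the smallest p, with 106, 150 and 211 CPM in Slfn3KO and 178, 251 and 290 CPM in WT and a log2 fold change of -0.69 ± 0.15 (edgeR adjusted p = 0.327), and -0.50 without the 4 WT libraries. Of 15 GTPases that interferon gamma induces, 14 had a log2 fold change below 0 with a median of -0.27, and 1 was lower at an unadjusted p under 0.05. Without the 4 WT libraries 6 of these 15 were below 0 and the median was 0.17, while with the B cell score 10 were below 0 and the median was -0.07. Of 15 genes that sense nucleic acid upstream of interferon 3 were lower, with a median of -0.17, and 1 was without the 4 WT libraries. Of 10 negative regulators 3 were lower and 1 higher, and without the 4 WT libraries 0 were lower and 1 higher.

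The promoter search was set beside these values. The 16 genes with a match to the response element had a median pooled log2 fold change of -0.95, and the 13 genes with a promoter and no match -0.57. Xaf1, the gene with the smallest p, was among those without a match.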

How the data were processed

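RNA of the ileum mucosa of 16 mice was sequenced as single reads from stranded libraries. Per the labels and the study's methods, the authors ran cutadapt for trimming and STAR for alignment to mm10. The authors deposited raw counts per gene, made with featureCounts 1.4.6 on the reverse strand per the file header, with HTSeq named in the methods. The submitters' notes also name DESeq2 1.22.2. GENCODE M21 gave symbols for 45229 of 46078 genes. The members and gene lists were chosen with earlier results of these data known.

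The main tool was edgeR 4.0.16 under R 4.3.3 (TMM factors, filterByExpr, robust quasi-likelihood test), with p-values adjusted by Benjamini-Hochberg over all genes tested. Sex as labelled was a covariate in the pooled comparison, and the labelled sexes were compared by the interaction term. The sex transcripts of 4 WT libraries contradicted these labels. The call was an adjusted p under 0.05 with at least a 1.5-fold change. Standard errors are the log2 fold change over the square root of F. In each role group, the member with the highest level per length and the 2 with the smallest pooled p are given in full. Alternatives were RLE factors, DESeq2 1.42.0 (Wald test, in which Ifit2 had no p), other filters, no fold threshold, no sex covariate, all groups in 1 fit, the B cell score (mean log2 CPM over markers, prior count 2) as a covariate, no WT libraries 3 and 4, a replicate block and each library left out. Deviations from the group means in libraries of the same number correlated at 0.229, 0.317, 0.518 and 0.138 in males. In females the correlations were -0.362, 0.143, -0.337 and -0.113. The main fits did not pair libraries by number in either sex, and the replicate block was an alternative in every comparison. The tests were checked on simulated data. A further gene list is not reported here.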

Additional observations from a re-analysis of the deposited data

Results flagged for a closer look

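In a group of 4 libraries, a library was set apart where its gap to the nearest other, on the log2 CPM scale, exceeded the critical share of the group's range in Dixon's 95% test. This held in 13 of 156 groups. Chance gives about 1 in 20 for independent groups, but the same libraries recur for every gene, so the count cannot be weighed against that rate.

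Male Slfn3KO 1 was set apart on the low side for 6 genes. It held 17.7 CPM of Ifit1 (62 to 65 in the others), 9.08 CPM of Zbp1 (94.0 to 110), 43.5 CPM of Irf9 (53.7 to 54.7), 6.96 CPM of Herc6 (27.2 to 35.9), 2.56 CPM of Usp18 (12.5 to 13.3) and 97.2 CPM of Parp9 (162 to 172). Its summed B cell markers, at 5.52 CPM, were the lowest of all 16 libraries, as were its T cell, plasma cell, macrophage and dendritic cell markers.

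Female WT 3 was set apart on the high side for 4 genes. It held 32.2 CPM of Ifit3 (6.08 to 7.92 in the others), 39.4 CPM of Dhx58 (10.9 to 13), 60.8 CPM of Bst2 (8.59 to 9.99) and 111 CPM of Trim30a (19.1 to 22.9).

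The remaining 3 were small in size. Oas1c was 1.01 CPM in female Slfn3KO 3 (1.43 to 1.48 in the others) and 1.52 CPM in male Slfn3KO 3 (0.873 to 0.937), and Cmpk2 was 64.6 CPM in male Slfn3KO 3 (81.8 to 83.8).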

How the results depend on the processing

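Of the values of single genes, none was past the threshold as reported. DESeq2 moved the count of members past it from 0 to 7 for the pooled comparison, to 3 for males and to 4 for females, and gave 1 at an unadjusted p for the difference between the sexes. Without WT libraries 3 and 4 the members lower at an unadjusted p went from 30 to 9 pooled, with a median of -0.43, from 22 to 5 in males and from 17 to 5 in females, and for the difference between the sexes from 0 to 4, with 1 past the threshold. For that difference the share over all genes was not counted in this setting. All 4 groups in 1 fit gave 13 in males, the B cell score 3 in females with a median of -0.45, and no filter 11 in females. RLE factors, no filter and the replicate block each gave 1 for the difference between the sexes. The replicate block gave 29 pooled, 27 in males and 18 in females, and changed no call. The share over all genes was not counted for RLE factors, no filter, all groups in 1 fit or the replicate block. It was also not counted for DESeq2 at an unadjusted p. These counts therefore have no baseline beside them.

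With each library left out, members lower at an unadjusted p ranged from 22 to 35 pooled, 16 to 27 in males and 4 to 21 in females, and 0 to 4 had an unadjusted p for the difference between the sexes, with 0 past the threshold throughout. The medians ranged from -1.03 to -0.62 pooled, -0.97 to -0.58 in males, -1.14 to -0.39 in females and -0.33 to 0.36 for the difference. The female count was 4 without Slfn3KO 1, 5 without Slfn3KO 2, 11 without Slfn3KO 4 and 4 without WT 3. With a library left out, the share over all genes was counted only in females without WT 3, where it was 12.8%. The other counts have no baseline beside them.

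Values changed sign for Ifit2 pooled (0.25 without WT libraries 3 and 4), Ifi35 pooled (0.017 without female WT 1, within a range of -0.25 to 0.017), Cmpk2 in males (0.11 without male WT 4, within a range of -0.35 to 0.11) and Ifi27 in males, near 0 as reported (0.11 with the B cell score, 0.00098 with the replicate block, 0.64 without WT libraries 3 and 4, and 0.02, 0.01 and 0.25 without male Slfn3KO 2, Slfn3KO 3 and WT 4, within a range of -0.28 to 0.25). The cause of each change was not tested. Each member had at least 10 counts in every library. Counts of Slfn3 and of the type I and type III interferons were too low to compare.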
